A study of Homo sapiens with 16 samples.

Results

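Transfected HEK293 cells from 7 libraries of replicate 2 were compared in 2 sets that differed in the strength of their interferon response. HEK293 is a long-established human cell line derived from embryonic kidney, and the study as a whole had 16 libraries in 8 groups with replicate numbers 1 and 2. The high set held the 3 libraries labelled empty vector, T2 and CU2, and the low set the 4 libraries labelled T1, CU1, CU1ENC and CU1ENU. T1, T2, CU1, CU2, CU1ENC and CU1ENU are 6 transcripts of the long non-coding RNA gene LINC01016, each cloned into pcDNA3.0. Empty vector cells received the plasmid with no transcript, so all 7 libraries share lipid transfection and the plasmid backbone. Cells were given 5 micrograms of plasmid in 60 mm plates and were collected 48 hours later. The labels do not say how the transcripts differ in sequence, nor whether replicate numbers mark separate cultures. P-values therefore measure the spread between libraries, which may be technical. Each test in replicate 1 held 1 library per plasmid, so this spread also takes in differences between plasmids. The same 7 plasmids in replicate 1 were used as libraries that had no part in the choice, and the 2 parental, untransfected libraries as background.

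Type I and type III interferons are secreted after cells sense foreign nucleic acid, and signal through their receptors to a complex of transcription factors. That complex binds interferon-stimulated response elements and switches on a broad set of antiviral genes, among them sensors, RNA-binding effectors, restriction factors and antigen presentation genes. Introduced plasmid DNA and the RNA made from it are known triggers in cultured cells. The question was what else moved with this response.

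The sets were chosen on the interferon response itself, which 6 markers describe here. IFIT1, IFIT2 and IFIT3 belong to a family of antiviral RNA binders. ISG15 is a ubiquitin-like modifier, MX1 an antiviral GTPase, and OAS1 makes the activator of RNase L. The mean log2 CPM of the 6 markers, called the interferon index, was 5.10 in empty vector, 6.42 in T2 and 6.62 in CU2. In the low set it was 3.74 in T1, 3.93 in CU1, 4.17 in CU1ENC and 4.48 in CU1ENU. CPM are the usual depth-scaled counts, here adjusted with TMM factors. IFIT1 had 78.6 CPM in empty vector, 227 in T2 and 229 in CU2, against 23.2 in T1, 37.5 in CU1, 37.7 in CU1ENC and 56.5 in CU1ENU. ISG15 had 78.3 CPM in empty vector, 149 in T2 and 165 in CU2, against 41.1 in T1, 41.7 in CU1, 39.3 in CU1ENC and 46.2 in CU1ENU, and OAS1 had 12.3 CPM in empty vector, 35.8 in T2 and 37.2 in CU2, against 3.41 in T1, 4.54 in CU1, 6.14 in CU1ENC and 7.69 in CU1ENU. The sets do not overlap for any of the 6 markers, because that is how they were chosen, and no test is given for any gene of this contrast. The boundary fell between empty vector and CU1ENU, 0.63 index units apart, while T2 lay 1.32 above empty vector, so the empty vector library sat nearer to the low set than to T2 and CU2. Parental cells had 9.22 and 12.98 CPM of IFIT1 over the same genes, below every transfected library.

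**Figure D1:**
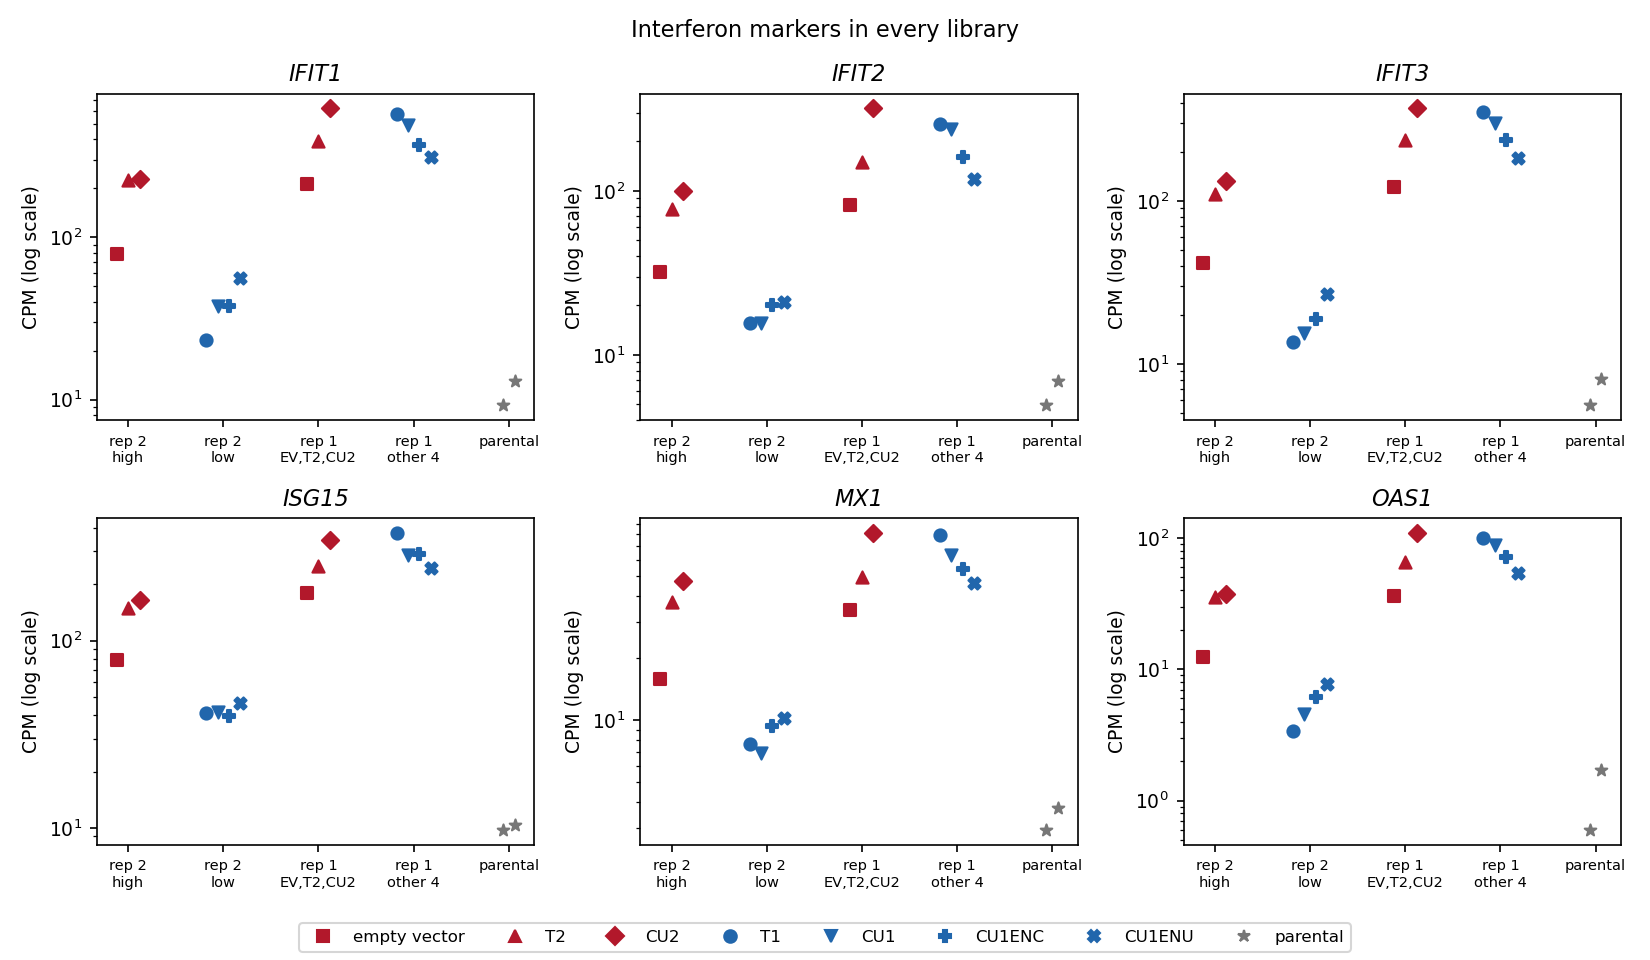
CPM of the 6 markers (log scale) in every library: high set and low set of replicate 2, the same plasmids in replicate 1, and parental cells. Each point is 1 library, and EV is the empty vector. IFIT1 in replicate 2 ran from 78.6 to 229 CPM in the high set and from 23.2 to 56.5 CPM in the low set, while in replicate 1 the same plasmids overlapped.

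Library totals of the 14 transfected samples ran from 15040770 to 17255935 counts, and 18640 genes had enough counts to be compared. In replicate 2 the totals were 15468800 to 15537800 in the high set and 15706800 to 16375500 in the low set. Every high library was thus shallower than every low library, and the part of this in the results was not tested. All 10 markers of HEK293 cells, among them VIM, KRT8 and PAX2, had counts in every library, and the list summed to 2961 to 3034 CPM in the high set and 2794 to 2891 CPM in the low set, a gap whose part in the results was not tested. Of 14 leukocyte markers, 3 (PTPRC, MS4A1 and FCGR3A) were at 0 in all 7 libraries, and the list summed to 4.91 to 5.69 CPM in the high set and 5.43 to 7.76 CPM in the low set. The summed fibroblast list spanned 50.1 to 57.7 CPM in the high set and 50.3 to 58.4 CPM in the low set. In bulk RNA, fewer responding cells and less RNA per cell cannot be told apart. In a principal component analysis of these libraries alone, the first axis (22% of variance) placed the high set at -26.0 (empty vector), -7.83 (T2) and -20.7 (CU2) and the low set between 7.77 and 19.7. It used all tested genes, among them LINC01016 and the interferon genes on which the sets were chosen, so this separation supports nothing further. The second axis (19.3%) did not separate the sets, with T1 at 26.3, empty vector at 12.8 and T2 at -28.4.

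Across all genes, a gene was counted as apart where all 3 high libraries lay above, or all lay below, all 4 low libraries. By that rule 853 genes (4.58%) were higher and 898 (4.82%) lower in the high set. When counts were scaled by library totals alone, the split was 1200 higher and 562 lower. Of 208 genes listed as interferon-related, 177 could be compared and 31 had too few counts. Of the 177, 96 were higher in the high set and 0 lower, with a median difference of 0.44 on the log2 scale against 0.00 for all genes. At 1.5-fold or more, 66 listed genes were apart upward, of 205 in all (1.1%), and none downward, of 67 in all (0.359%). Since the rule chose the libraries on such genes, these counts describe the contrast and support nothing further.

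The secreted interferons themselves were near the limit of counting. IFNB1, the type I ligand of non-immune cells, had 3 counts in empty vector, 18 in T2 and 9 in CU2, against 8 in T1, 3 in CU1, 2 in CU1ENC and 2 in CU1ENU. IFNL1, a type III ligand, had 7 counts in empty vector, 6 in T2 and 11 in CU2, against 5 in T1, 2 in CU1, 1 in CU1ENC and 0 in CU1ENU, and IFNL2 had 1 count in empty vector, 7 in T2 and 15 in CU2, against 0 in T1, 2 in CU1, 0 in CU1ENC and 0 in CU1ENU. Only IFNL1 of these 3 kept the sets apart, and T1, in the low set, had more IFNB1 counts than empty vector. The 6 receptor chains showed no separation. IFNAR1 had 78.2 CPM in empty vector, 72.8 in T2 and 73.6 in CU2, against 69.3 in T1, 82.0 in CU1, 71.3 in CU1ENC and 76.5 in CU1ENU, a log2 difference of 0.00, and the receptor list ran from -0.11 to 0.20. IFNAR2 and IL10RB share 44.2% and 38.3% of their exon bases with the readthrough gene IFNAR2-IL10RB, so their counts are uncertain.

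Sensors and signalling genes came next. RIGI, a cytosolic sensor of RNA, had 55.8 CPM in empty vector, 120.0 in T2 and 122 in CU2, against 27.9 in T1, 33.4 in CU1, 33.96 in CU1ENC and 37.2 in CU1ENU. IFIH1, which encodes the RNA sensor MDA5, averaged 37.3 ± 10.8 CPM in the high set and 15.6 ± 2.29 CPM in the low set (SD, n = 3 and 4). IRF7, the factor that amplifies interferon transcription, averaged 82.4 ± 24.0 CPM in the high set and 36.8 ± 4.34 CPM in the low set. In this list 14 of 25 genes were apart upward and 0 downward, with a median of 0.47 on the log2 scale. BATF2 and DHX58 were low, at 1.25 and 1.35 CPM over the 7 libraries, and differed by 1.51 and 1.33.

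Effectors showed the widest gaps. OAS2 had 10.2 CPM in empty vector, 21.9 in T2 and 36.6 in CU2, against 1.45 in T1, 2.33 in CU1, 3.95 in CU1ENC and 5.35 in CU1ENU, a log2 difference of 2.73. RSAD2, which encodes the antiviral enzyme viperin, had 13.5 CPM in empty vector, 37.9 in T2 and 49.4 in CU2, against 3.22 in T1, 4.29 in CU1, 6.26 in CU1ENC and 6.78 in CU1ENU, a difference of 2.54. Both genes put empty vector between the other high libraries and the low set, as the markers did. All 4 IFIT genes, 4 of 5 OAS and RNase L genes, all 7 genes of ISG15 conjugation and removal and 35 of 51 restriction factors were apart upward. USP18, which removes ISG15 and dampens receptor signalling, averaged 39.9 ± 10.2 CPM in the high set and 19.9 ± 0.727 CPM in the low set, and BST2, which tethers budding virions, differed by 2.24. APOL6, of the apolipoprotein L family, had 1.66 CPM in empty vector, 4.39 in T2 and 8.14 in CU2, against 0.442 in T1, 0.442 in CU1, 1.32 in CU1ENC and 1.04 in CU1ENU. Among other interferon-stimulated genes 19 of 49 were apart upward, led by XAF1, a pro-apoptotic interferon target at 1.35 CPM over the 7 libraries (2.65), and by IFI44 (2.19), IFI44L (2.13) and IFI6 (1.92). IFITM1 differed by 2.35, and shares 37.5% of its exon bases with IFITM2.

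Antigen presentation genes differed less. TAP1, a subunit of the peptide transporter, averaged 75.7 ± 11.9 CPM in the high set and 49.4 ± 2.66 CPM in the low set, a log2 difference of 0.60. HLA-B averaged 202 ± 13.05 CPM in the high set and 160.1 ± 4.62 CPM in the low set (0.33). Reads of HLA genes can be split among near-identical copies, which makes their counts uncertain. B2M, the light chain of class I molecules, had 201 CPM in empty vector, 257 in T2 and 236 in CU2, against 180.5 in T1, 202 in CU1, 198 in CU1ENC and 203 in CU1ENU, so the empty vector library lay among the low ones. In this list 8 of 20 genes were apart upward, and only TAP1 by 1.5-fold or more.

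**Figure D2:**
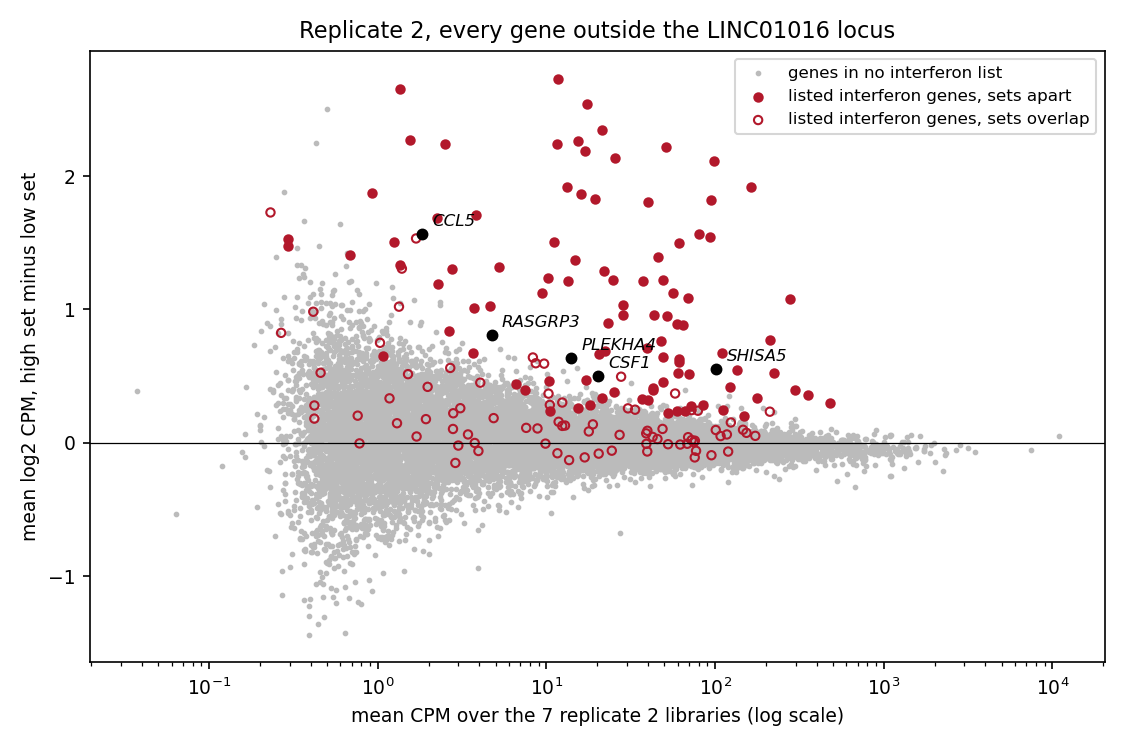
High minus low difference in mean log2 CPM (vertical) against mean CPM over the 7 libraries of replicate 2 (horizontal, log scale). Each point is a gene outside the LINC01016 locus, listed interferon genes are red, filled where the sets do not overlap, and 5 genes outside those lists are labelled. Above 10 CPM the listed genes reach 2.73, and the other genes stay within 0.67 of 0.

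The promoters of these genes were searched for the core of the interferon-stimulated response element, GAAA and GAAA with any 2 bases between them, on both strands of windows from 250 bases before to 50 after the annotated start (RefSeq, GRCh38.p14). Overlapping matches were counted separately. Of all 27305 promoters given, 3.65% held a match, as did 2.76% of the 12673 tested genes with a window. Among listed interferon genes apart upward, 40 of 74 with a window did (54.1%), and among listed genes that were not apart 19 of 56 (33.9%). Among unlisted genes apart by 1.5-fold at a mean of at least 1 CPM, 2 of 20 upward and 0 of 11 downward did. None did among the 5 with a window that passed the slope test given below. The windows of 3 markers, of PSMB8-AS1 and of SHISA5, both outside the interferon lists, are printed from 5′ to 3′ with the matches in capitals. They show a marker with separate matches on the minus strand (IFIT1), a marker with overlapping matches (ISG15), a marker with a match after the start (MX1), an unlisted gene with a match and an unlisted gene without. Their positions are IFIT1 chr10:89392373-89392672 (plus strand), ISG15 chr1:1013247-1013546 (plus strand), MX1 chr21:41420308-41420607 (plus strand), PSMB8-AS1 chr6:32843836-32844135 (plus strand) and SHISA5 chr3:48504761-48505060 (minus strand).
IFIT1: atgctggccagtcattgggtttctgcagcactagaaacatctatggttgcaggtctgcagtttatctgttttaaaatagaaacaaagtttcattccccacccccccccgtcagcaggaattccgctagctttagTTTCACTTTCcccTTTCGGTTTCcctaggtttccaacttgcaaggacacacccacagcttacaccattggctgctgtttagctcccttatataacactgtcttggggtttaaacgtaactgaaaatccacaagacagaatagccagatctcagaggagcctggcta
ISG15: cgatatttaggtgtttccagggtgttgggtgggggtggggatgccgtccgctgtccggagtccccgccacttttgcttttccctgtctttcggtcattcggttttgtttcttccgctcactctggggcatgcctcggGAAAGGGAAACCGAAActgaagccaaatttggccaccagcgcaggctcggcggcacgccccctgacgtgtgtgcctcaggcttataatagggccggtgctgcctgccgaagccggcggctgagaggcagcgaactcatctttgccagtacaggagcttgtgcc
MX1: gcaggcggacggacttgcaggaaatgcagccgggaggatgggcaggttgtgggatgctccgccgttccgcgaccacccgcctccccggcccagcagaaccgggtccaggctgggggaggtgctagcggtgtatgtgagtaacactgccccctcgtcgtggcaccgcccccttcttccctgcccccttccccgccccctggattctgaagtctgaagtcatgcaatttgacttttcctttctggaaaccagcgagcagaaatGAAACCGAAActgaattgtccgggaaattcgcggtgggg
PSMB8-AS1: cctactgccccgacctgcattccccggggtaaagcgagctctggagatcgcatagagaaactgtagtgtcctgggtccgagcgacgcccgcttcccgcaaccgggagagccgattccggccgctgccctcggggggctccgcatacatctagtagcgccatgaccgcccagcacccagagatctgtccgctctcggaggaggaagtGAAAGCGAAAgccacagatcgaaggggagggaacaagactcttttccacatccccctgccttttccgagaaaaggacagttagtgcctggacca
SHISA5: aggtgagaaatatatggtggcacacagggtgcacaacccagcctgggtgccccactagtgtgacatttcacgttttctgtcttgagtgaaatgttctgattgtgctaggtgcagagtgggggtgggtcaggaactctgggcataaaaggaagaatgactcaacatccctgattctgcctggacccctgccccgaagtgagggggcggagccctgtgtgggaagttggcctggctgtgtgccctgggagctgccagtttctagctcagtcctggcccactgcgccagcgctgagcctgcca
The IFIT1 matches begin 116 and 103 bases before the start, and those of ISG15 113 and 107 bases before it. The OAS1 and RSAD2 windows held no match, which says only that these letters do not occur there.

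Outside the interferon lists, 18461 genes were compared, the LINC01016 locus left out. Of these, 757 (4.10%) were apart upward and 897 (4.86%) downward, close to the shares over all genes. At 1.5-fold or more there were 139 upward and 66 downward, of which 50 and 24 had a mean of at least 1 CPM. At a mean of at least 10 CPM, 1 unlisted gene of 10573 was apart upward by 1.5-fold, PLEKHA4, and 0 were apart downward, beside 46 of 120 listed interferon genes. The unlisted differences of 1.5-fold or more were therefore almost all in low-expressed genes.

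At a mean of at least 1 CPM, 7 unlisted genes were apart upward by 2-fold or more, and those without a gene name were not ranked. CCL5 had the largest upward difference among unlisted genes with a gene name and a mean of at least 1 CPM. It encodes a T cell chemokine that is itself known as induced by virus and interferon, and it was held in the chemokine list. CCL5 had 1.60 CPM in empty vector, 3.60 in T2 and 3.75 in CU2, against 0.379 in T1, 0.82 in CU1, 1.57 in CU1ENC and 1.04 in CU1ENU, a log2 difference of 1.57. ATP10A, which encodes a phospholipid flippase, had 2.94 CPM in empty vector, 3.93 in T2 and 3.23 in CU2, against 1.39 in T1, 1.89 in CU1, 1.57 in CU1ENC and 1.37 in CU1ENU (1.06). PSMB8-AS1 (ENSG00000204261, chromosome 6, 32844078 to 32846500, plus strand, coordinates of GRCh38.p13 from the file headers here and below) has a span that crosses that of TAP1 on the opposite strand. PSMB8-AS1 had 3.65 CPM in empty vector, 3.01 in T2 and 3.42 in CU2, against 1.45 in T1, 1.58 in CU1, 1.57 in CU1ENC and 1.70 in CU1ENU (1.04), and it shares 7.18% of its exon bases with PSMB9 on its own strand. The groups of these 3 genes do not overlap, and CCL5 was nearest to doing so, with empty vector beside CU1ENC.

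The next of the upward genes with a gene name lay between 0.70 and 0.91 on the log2 scale and between 1.12 and 4.73 CPM. RASGRP3, an exchange factor for Ras-family GTPases, had 4.86 CPM in empty vector, 6.29 in T2 and 7.82 in CU2, against 3.03 in T1, 4.61 in CU1, 3.32 in CU1ENC and 3.19 in CU1ENU. CXCL12, a chemokine of stromal cells, averaged 1.53 ± 0.246 CPM in the high set and 0.808 ± 0.279 CPM in the low set, and PLEKHG6, a guanine nucleotide exchange factor, 2.11 ± 0.0955 CPM in the high set and 1.11 ± 0.377 CPM in the low set. GDF15, a stress-induced cytokine, averaged 2.27 ± 0.415 CPM in the high set and 1.33 ± 0.286 CPM in the low set. NPIPB9, STX17-DT, ZNF878, ASTN1 and MIR3665 completed the 12. NPIPB9 belongs to a family of near-identical copies, and STX17-DT and ZNF878 share 34.6% and 19.99% of their exon bases with another gene, so those counts are uncertain.

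Downward, the 12 unlisted genes with a gene name and the largest differences lay between -0.98 and -0.64, all at 3.94 CPM or less. MGAM, which encodes an intestinal maltase, had 0.32 CPM in empty vector, 0.982 in T2 and 0.711 in CU2, against 1.01 in T1, 1.70 in CU1, 1.69 in CU1ENC and 1.11 in CU1ENU (-0.98). ADAMTS20, a secreted metalloprotease gene, averaged 0.755 ± 0.0833 CPM in the high set and 1.36 ± 0.251 CPM in the low set, and SLC17A8, a vesicular glutamate transporter gene, 0.732 ± 0.127 CPM in the high set and 1.29 ± 0.137 CPM in the low set. NXPH3, which encodes a secreted neurexin ligand, had the highest level of the 12, with 3.39 CPM in empty vector, 3.08 in T2 and 2.39 in CU2, against 4.35 in T1, 4.86 in CU1, 4.70 in CU1ENC and 4.82 in CU1ENU. The others were MT-TM, ASNS, EIF2S2P4, NIM1K, GPR83, CCND2-AS1, NCAL1 and RBM34. ASNS, NCAL1 and RBM34 share 49.3%, 72.7% and 48.6% of their exon bases with other genes on their strand, so these low counts are uncertain. In MGAM the value without empty vector was -0.61, and in NIM1K without CU2 it was -0.45.

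Lists of other pathways are set beside the shares of all genes, 4.58% upward and 4.82% downward, and several lay above these in a single direction. Among 17 chemokines and cytokines 3 were apart upward (CXCL10, CCL5 and CSF1) and 1 downward, with a median of -0.13. CXCL10, the classical interferon-induced chemokine, had 3 counts in empty vector, 9 in T2 and 15 in CU2, against 1 in T1, 1 in CU1, 1 in CU1ENC and 0 in CU1ENU. NF-kB subunits, targets and inhibitors had 1 of 22 upward (TRAF1, 0.27) and 1 downward (PTGS2, -0.37). Immediate-early genes had 0 of 33 upward and 1 downward (DUSP4, -0.20), but 28 of the 33 differences were negative, with a median of -0.13. The integrated stress response had 2 upward and 2 downward of 39, p53 targets 2 and 1 of 25, and cell death genes 1 and 1 of 20. Of 14 TGF-beta, ID and SMAD feedback genes 4 were apart upward, among them ID1 (0.20) and TGFB1 (0.16), and 0 downward. That upward share is above the 4.58% of all genes, with a median difference of 0.05. In the same plasmids of replicate 1, 7 of the 14 were positive, with a median of -0.002.

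Several housekeeping lists had more genes apart downward than the 4.82% of all genes. In the unfolded protein response list it was 9 of 26, with 0 upward and a median of -0.09. HSPA5, the main chaperone of the endoplasmic reticulum, had 965 CPM in empty vector, 966 in T2 and 1056 in CU2, against 1207 in T1, 1164 in CU1, 1186 in CU1ENC and 1181 in CU1ENU, a log2 difference of -0.25. DNAJB9, a co-chaperone there, averaged 38.4 ± 0.589 CPM in the high set and 45.1 ± 1.97 CPM in the low set (-0.23), and MANF differed by -0.15. Ribosome biogenesis had 11 of 31 downward and 1 upward, with WDR75, a factor for ribosomal RNA transcription, at 73.2 ± 3.21 CPM in the high set and 84.2 ± 4.59 CPM in the low set. G2 and mitosis genes had 5 of 30 downward, SR proteins and hnRNPs 5 of 31, and nuclear-encoded respiratory chain genes 7 of 70. In each of these lists 0 or 1 genes were apart upward, and no gene was apart downward by 1.5-fold. Cytosolic ribosomal proteins had 6 of 79 downward, with 69 of 79 differences negative and a median of -0.06. All 13 mitochondrial genome transcripts were negative, with a median of -0.18, and MT-ND3, a complex I subunit, averaged 465 ± 38.5 CPM in the high set and 569 ± 67.5 CPM in the low set. The mitochondrial share of counts was 1.09% to 1.26% in the high set and 1.17% to 1.43% in the low set, and its part in these values was not tested.

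The counts of these small shifts moved with scaling, as did the share of all genes. With library totals in place of TMM, 3.02% of all genes were apart downward, against 4.82% with TMM, and the unfolded protein response had 6 of 26 downward, ribosome biogenesis 6 of 31, G2 and mitosis 2 of 30, SR proteins and hnRNPs 2 of 31 and ribosomal proteins 3 of 79. The medians stayed below 0, at -0.07, -0.03, -0.01, -0.02 and -0.04, while that of all genes was 0.03. Without the empty vector library, 12 of 26 unfolded protein response genes were apart downward, beside 8.09% of all genes.

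**Figure D3:**
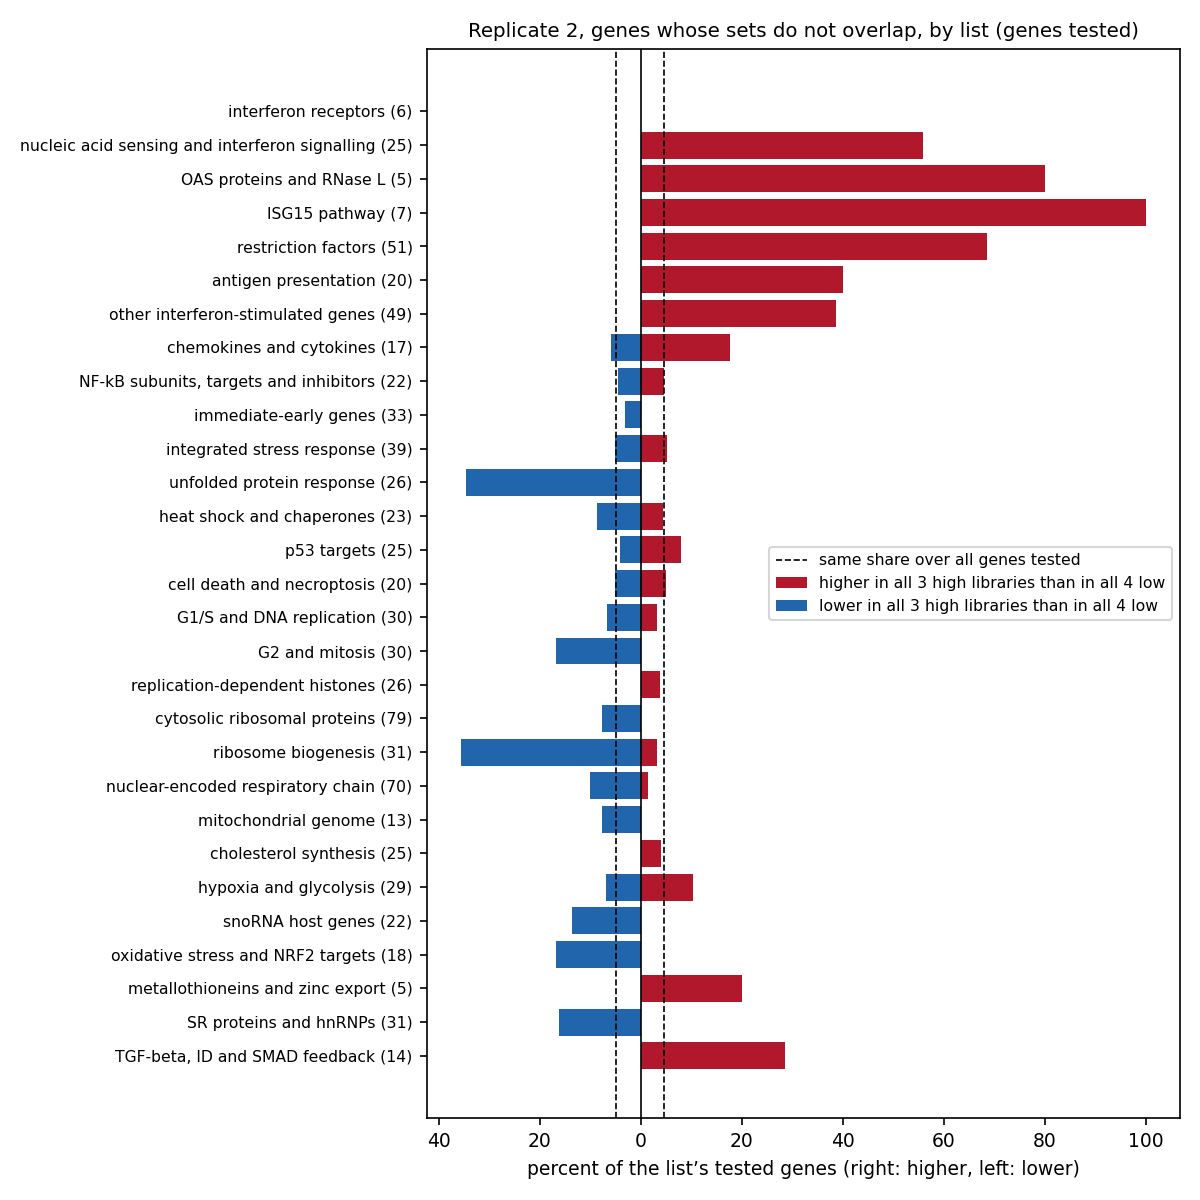
Percent of each list's tested genes whose high and low sets do not overlap in replicate 2, higher in the high set to the right and lower to the left, for lists of at least 5 tested genes (number in brackets). Dashed lines give the shares of all genes, 4.58% upward and 4.82% downward; the ISG15 pathway reaches 7 of 7 upward, and ribosome biogenesis has 11 of 31 downward.

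LINC01016 (ENSG00000249346, chromosome 6, 33867506 to 33896914, minus strand) also kept the sets apart, in the other direction. It had 0 CPM in empty vector, 4816 in T2 and 2611 in CU2, against 6288 in T1, 6281 in CU1, 6675 in CU1ENC and 8619.6 in CU1ENU. Empty vector cells carry no transcript, and T2 and CU2 gave less of it than the 4 plasmids of the low set. In replicate 1 the order of the sets was the same, with 0.0613 CPM in empty vector, 5197 in T2 and 3066 in CU2, against 6574 in T1, 10774 in CU1, 7111 in CU1ENC and 12156 in CU1ENU. The interferon index was not apart in replicate 1. Within replicate 2, interferon response, plasmid and LINC01016 level cannot be told apart.

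**Figure D4:**
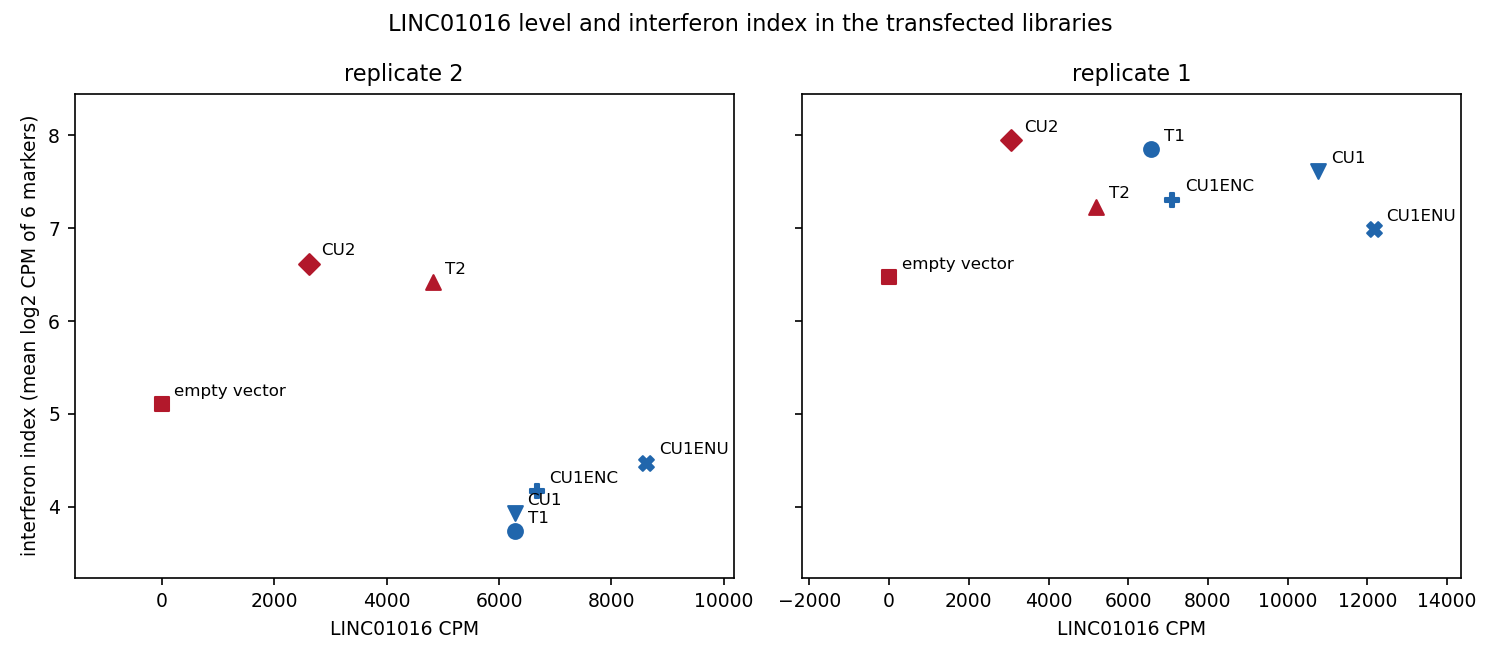
Interferon index (vertical) against LINC01016 level (CPM, horizontal) in each transfected library, replicate 2 on the left and replicate 1 on the right. In replicate 2 the high set (red) lies at 5.10 index units or more with up to 4816 CPM of LINC01016 and the low set (blue) at 4.48 or less with 6281 CPM or more; in replicate 1 the sets overlap on the index.

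Replicate 1 gave the test of the same 3 plasmids against the same 4 in libraries that the choice had not used. The index there was 6.47 in empty vector, 7.23 in T2 and 7.94 in CU2, against 7.85 in T1, 7.61 in CU1, 7.31 in CU1ENC and 6.99 in CU1ENU, and all 7 values were above the empty vector value of replicate 2. IFIT1 had 212 CPM in empty vector, 393 in T2 and 621 in CU2, against 569.6 in T1, 487 in CU1, 372 in CU1ENC and 311 in CU1ENU. CU2 and T1, on opposite sides in replicate 2, were the highest libraries in replicate 1, and empty vector the lowest. In edgeR, IFIT1 had a log2 fold change of -0.09 ± 0.43 SE (adjusted p = 0.989), and the 6 markers lay between -0.21 and -0.07 with adjusted p of at least 0.965. By the count of non-overlapping sets, 1 listed interferon gene of 177 was apart upward and 3 downward in replicate 1, where 2.96% and 2.88% of all genes were. Of 18640 genes 0 passed an adjusted p of 0.05 (0%), and the lowest adjusted p was 0.241. At an unadjusted p under 0.05 there were 1053 genes, where 932 make up 5% of those tested, and DESeq2 passed 0, with 715 at an unadjusted p under 0.05. RBIS (0.35 ± 0.07 SE), CARS1-AS1 (-0.91 ± 0.19 SE), PSMA1 (0.32 ± 0.07 SE), SEC61G (0.30 ± 0.06 SE) and PPT2-EGFL8 (-0.44 ± 0.09 SE) had the lowest p and did not pass. Without T1, 30 genes passed, and with no filter on low counts 55.

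Directions were then set side by side between the replicate numbers, which share no library. Of the 96 listed interferon genes apart upward in replicate 2, 4 (4.17%) were higher in the same plasmids of replicate 1. Of all 177 listed genes 38 (21.5%) were. Without the empty vector libraries, 74.4% of the 129 listed genes then apart upward in replicate 2 were higher in replicate 1. In that setting 8.27% of all genes were apart upward in replicate 2, and the replicate 1 share of all listed genes is not given. Of unlisted genes apart upward, 278 of 757 (36.7%) kept their sign in replicate 1, where 50.1% of all genes were positive. Of those apart downward 276 of 897 (30.8%) did, where 49.9% were negative. Among those apart downward by 1.5-fold the share was 57.6%. The lists went different ways. All 13 mitochondrial genome transcripts were positive in replicate 1 (median 0.14), as were 76 of 79 ribosomal protein genes (median 0.11), and 14 of 26 unfolded protein response genes (median 0.02). Also positive there were 63 of 70 nuclear-encoded respiratory chain genes (median 0.09) and 28 of 31 SR proteins and hnRNPs (0.04). The same held for 25 of 30 G2 and mitosis genes (0.04) and 16 of 31 ribosome biogenesis genes (0.00). Other lists had medians of the same sign in both replicate numbers: immediate-early genes had -0.13 in replicate 2 and -0.04 in replicate 1, the integrated stress response -0.04 and -0.03, and cholesterol synthesis 0.04 and 0.05. None of these genes passed in edgeR.

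Since the index also varied among the 7 libraries of replicate 1, by 1.48 units against 2.88 in replicate 2, each gene was fitted there on the index. The slope is the change in log2 expression per unit of the index, and this test was added after the data had been seen. In edgeR 102 genes passed upward (0.547%) and 1 downward (0.00536%) at an adjusted p under 0.05. Of the 177 listed interferon genes 90 passed upward and 0 downward, or 84 of 171 without the 6 markers that make up the index. Of these 90, 74 (82.2%) were also apart upward in replicate 2, as were 54.2% of all 177 listed genes. The 74 include the 6 markers, which the choice of sets placed apart. The slope was 1.38 ± 0.05 for RSAD2, 1.46 ± 0.08 for OAS2, 0.64 ± 0.05 for TAP1 and 0.42 ± 0.05 for HLA-B (SE, n = 7 libraries). B2M, which overlapped between the sets of replicate 2, passed with 0.36 ± 0.05.

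Outside the interferon lists 13 of 18461 genes passed the slope, 12 upward (0.065%) and 1 downward (0.00542%). Of the 13, 12 are named here for that result, and 5 were also apart upward in replicate 2, where 4.10% of unlisted genes were. The number of unlisted genes passing was 6 without T1, 38 without T2, and 1 without empty vector and CU2 together, where 54 listed interferon genes passed. The lists need not be complete, so a gene outside them can still be interferon-stimulated, as CCL5 is known to be. SHISA5, which encodes a membrane protein of the endoplasmic reticulum, had a slope of 0.43 ± 0.05 (adjusted p = 8.3e-08 in edgeR). SHISA5 had 126 CPM in empty vector, 174 in T2 and 195 in CU2, against 203 in T1, 183 in CU1, 172 in CU1ENC and 157 in CU1ENU in replicate 1. In replicate 2 it had 105 CPM in empty vector, 133 in T2 and 136 in CU2, against 76.4 in T1, 88.6 in CU1, 83.1 in CU1ENC and 89.7 in CU1ENU, and the sets do not overlap.

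PLEKHA4, a phosphoinositide-binding adaptor gene, had a slope of 0.52 ± 0.07 (edgeR adjusted p = 4.27e-06). PLEKHA4 had 22.4 CPM in empty vector, 29.5 in T2 and 39.2 in CU2, against 38.0 in T1, 35.0 in CU1, 31.7 in CU1ENC and 29.7 in CU1ENU in replicate 1. In replicate 2 it had 15.1 CPM in empty vector, 17.7 in T2 and 20.2 in CU2, against 10.8 in T1, 12.6 in CU1, 10.9 in CU1ENC and 10.8 in CU1ENU. SHISA5 and PLEKHA4 passed without any single library of replicate 1, with adjusted p up to 0.00851 and 0.0177.

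CCL5 had a slope of 1.10 ± 0.20 (edgeR adjusted p = 0.00103), with 2.21 CPM in empty vector, 3.02 in T2 and 6.80 in CU2, against 5.13 in T1, 3.94 in CU1, 3.11 in CU1ENC and 2.66 in CU1ENU in replicate 1. RASGRP3 had 0.63 ± 0.13 (0.00622) and CSF1, the growth factor of macrophages, 0.34 ± 0.07 (0.00764). CSF1 averaged 24.4 ± 3.59 CPM in the high set and 17.2 ± 1.76 CPM in the low set in replicate 2 (SD, n = 3 and 4). The call was lost without CU2 in CCL5 (adjusted p = 0.139), without CU2 or empty vector in RASGRP3 (up to 0.217) and without T1 or CU2 in CSF1 (up to 0.294).

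The other 8 were not apart in replicate 2. RAD51AP1, a homologous recombination factor, had a slope of 0.25 ± 0.05 in replicate 1, but averaged 82.1 ± 4.37 CPM in the high set and 88.7 ± 1.78 CPM in the low set in replicate 2. MMP13, a collagenase (0.61 ± 0.13), POU3F2, a neural transcription factor (0.27 ± 0.07), BTN3A1, a butyrophilin that takes part in gamma delta T cell recognition (0.37 ± 0.09), NAMPT, an enzyme of NAD synthesis (0.19 ± 0.05), and IRF1-AS1, next to the interferon-induced factor IRF1 (0.67 ± 0.16), passed upward. The pseudogene WASH3P, whose counts are uncertain because of near-identical copies, passed downward (-0.35 ± 0.09). All 8 lost their call without the empty vector library of replicate 1, and all but POU3F2 without T1. HSPA5, lower in the high set of replicate 2, had a slope of 0.12 ± 0.05 in replicate 1 (edgeR adjusted p = 0.778), and DNAJB9 0.23 ± 0.07 (0.239).

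**Figure D5:**
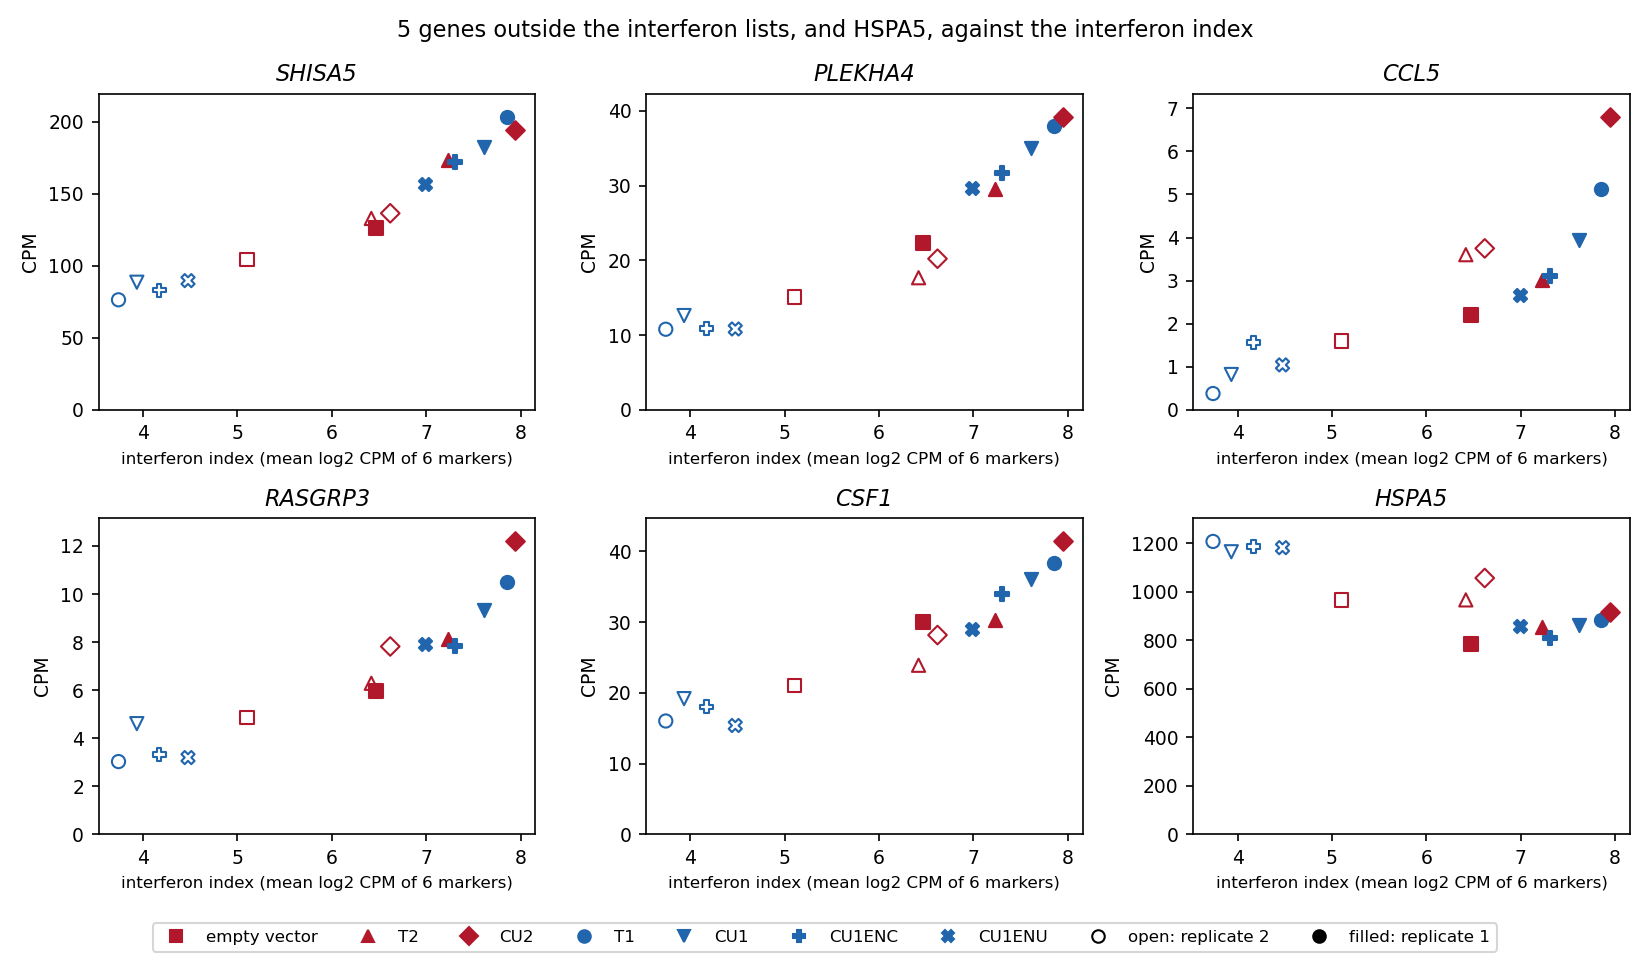
CPM of SHISA5, PLEKHA4, CCL5, RASGRP3, CSF1 and HSPA5 against the interferon index in the 14 transfected libraries, replicate 2 open and replicate 1 filled. The 5 genes other than HSPA5 had their lowest values in the low set of replicate 2 and their highest in T1 or CU2 of replicate 1, SHISA5 reaching 203 CPM in T1 of replicate 1, while HSPA5 is at 965 to 1056 CPM in the high set, 1164 to 1207 CPM in the low set, and 786 to 918 CPM in replicate 1.

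Of the 757 unlisted genes apart upward in replicate 2, 52.7% had a positive slope in replicate 1, as had 56.4% of the 897 apart downward and 49.9% of all genes. Among the 96 listed interferon genes apart upward 95 had a positive slope, near the 168 of 177 (94.9%) of all listed genes. The 96 include the 6 markers that make up the index. No list outside the interferon lists had a gene that passed the slope, apart from 2 of 17 chemokines and cytokines, CCL5 and CSF1. ATP10A (0.82 ± 0.21, edgeR adjusted p = 0.0854) and PSMB8-AS1 (0.63 ± 0.22, 0.602) did not pass.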

How the data were processed

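RNA was counted by gene in 16 libraries, and the 14 transfected ones were analysed here with replicate numbers kept apart. The authors deposited whole-number counts per gene and did not normalize them. They were made, per the file headers, with featureCounts 2.0.1 in paired, strand-specific mode over exons of Ensembl release 101. Per the submitters' processing notes HISAT2 and DESeq2 were used with GRCh38.p13; the alignment settings were not given in the sources used here. Symbols were matched by identifier for 60401 of 60671 genes.

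Genes were kept by filterByExpr (minimum count 10, minimum total 15) over the 14 libraries, which left 18640, and scaled by TMM. Log2 CPM used a prior count of 2. Differences in replicate 2 are means of log2 CPM, described without a test. Replicate 1 was tested with edgeR 4.0.16 (quasi-likelihood F-test, 5 residual degrees of freedom, Benjamini-Hochberg adjustment over all genes) in R 4.3.3, with DESeq2 1.42.0 as an alternative. The standard error is the absolute log2 fold change, or slope, over the square root of F. The fitting steps were tested on simulated data.

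The sets, the 38 gene lists (11 of interferon genes, 23 of other pathways, 4 of markers) and the rules were chosen with earlier results of these data known, and the slope test and its alternatives after seeing the data. The listed symbols SOD2 and H2AC18 had no row. Named genes were the 6 markers, the 4 largest differences of each interferon list among genes apart, ligands and receptors, the 12 largest unlisted differences each way at 1 CPM or more among genes whose symbol is not a clone name, up to 3 genes of each other list, the 5 lowest p of replicate 1, the LINC01016 locus and the unlisted genes that passed the slope. A few further listed genes (IRF7 and B2M) were added after their values were seen, and some genes under the rule are counted but not named; some items are not reported here. Chi-square per degree of freedom between libraries of a group ran from 6.21 (T2) to 17.0 (T1). The libraries of a group were therefore not summed, and the main comparisons kept them apart by replicate number.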

Additional observations from a re-analysis of the deposited data

Results flagged for a closer look

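In 3 of 88 groups of 4 libraries checked, a single library lay far from the other 3 by Dixon's criterion, where 4.4 are expected when 1 in 20 is marked by chance. LINC01016 was 8620 CPM in CU1ENU of replicate 2, against 6281 to 6675 CPM in the other low-set libraries. PLEKHA4 was 12.6 CPM in CU1 of replicate 2, against 10.8 to 10.9 CPM in the other 3, and still below every high-set library. MMP13 was 3.97 CPM in T1 of replicate 2, against 5.22 to 5.45 CPM in the other 3.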

How the results depend on the processing

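No paired analysis was possible because each comparison holds libraries of a single replicate number. With DESeq2 size factors, library totals or a prior count of 0.5, the listed interferon genes apart upward stayed between 96 and 106. Library totals gave 562 genes apart downward and 1200 upward. Without the low-count filter, 417 unlisted genes were apart by 1.5-fold upward and 263 downward, 55 genes passed in replicate 1 and 22 unlisted genes passed the slope. Without the 2 libraries farthest from the median index, 54 listed and 1 unlisted genes passed the slope. Same-sign shares without the empty vector libraries were 42.0% for unlisted genes apart upward, 36.3% for those apart downward and 74.4% for listed genes, and at 1.5-fold the downward share was 57.6%. The cause was not tested.

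Leaving out single libraries of replicate 2, genes apart ranged from 1191 to 1730 upward and from 1174 to 1713 downward, listed genes upward from 96 to 129, and unlisted genes at 1.5-fold from 191 to 354 upward and from 101 to 157 downward; with fewer libraries more genes fail to overlap by construction. In replicate 1, without single libraries, 0 to 30 genes passed (30 without T1) and 0 listed ones. On the slope 72 to 101 listed and 6 to 38 unlisted genes passed. Of 143 recomputed slopes of the 13 unlisted genes 57 no longer passed. Genes under 1 CPM rest on fewer than about 16 counts a library, which limits what can be read from low unlisted genes.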
